A study of Mus musculus with 6 samples.

Results

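The ephrin, semaphorin, Slit and netrin guidance genes were examined in cultured mouse podocytes labelled Setdb2KO and Setdb2WT. They were taken by name as every protein-coding gene of the deposited table whose symbol begins with an ephrin, Eph, semaphorin, plexin, Robo, Slit, netrin or Unc5 stem, which gave 65 of 16383 protein-coding genes and of 21719 genes in all. The cells were MPC5, a line of mouse podocytes that carries a temperature-dependent immortalising gene, and RNA was sequenced in 6 libraries. Of these 3 were labelled Setdb2KO, for knockout of Setdb2, whose SET domain is of the kind that methylates histones, and 3 were labelled Setdb2WT, for wild type; all 6 were kept in high glucose. The labels give neither the glucose concentration, nor how the knockout was made, nor whether it is 1 clone. Since no label ties a library to a culture of its own, a p-value here measures the spread between these samples alone, and that spread may be technical.

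Guidance cues are ligands that steer growing axons and migrating cells, and many of them also set cell shape and adhesion outside the nervous system. Ephrins sit on the cell surface, the A class by a lipid anchor and the B class by a transmembrane stretch, and signal to Eph receptor tyrosine kinases on a neighbouring cell while also signalling back into their own cell. Semaphorins act through plexins, and most secreted class 3 semaphorins need a neuropilin as co-receptor; Slits act through Robo receptors, and netrins through Dcc, neogenin and Unc5 receptors. In the glomerulus, podocyte ephrin-B1 has been placed at the slit diaphragm, excess Sema3a disturbs foot processes in mice, and Robo2 restrains actin assembly in foot processes.

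Each library held 36461449 to 37129174 counted reads. Setdb2 itself did not fall in the libraries labelled Setdb2KO: it had 17, 15 and 25 reads there, against 12, 10 and 9 reads in the Setdb2WT libraries (adjusted p = 0.088; every adjusted p here is Benjamini-Hochberg adjusted, from the quasi-likelihood test of edgeR). Smad3, which the series title names as silenced by the protein, had 61.9 ± 2.9 CPM in Setdb2KO and 162 ± 3.1 CPM in Setdb2WT libraries (SD, n = 3 each, CPM here being counts scaled to library size with TMM factors). Directions below are therefore those of the libraries so labelled. Of 16 podocyte markers 14 were in the table, and of the 11 tested 5 were higher and 5 lower. Their summed level was 1382 to 1489 CPM in Setdb2KO and 1546 to 1552 CPM in Setdb2WT libraries. Most of that sum was Cd2ap (mean 633 CPM in Setdb2KO, 415 CPM in Setdb2WT) and Actn4 (524 and 716 CPM), so it hides larger changes. Npnt averaged 4.9 CPM in Setdb2KO and 93.1 CPM in Setdb2WT libraries, and Podxl 4.96 and 50.5 CPM. Vegfa, at 63.0 and 30.2 CPM, and Dach1, at 1.33 and 0.248 CPM, were higher in Setdb2KO libraries. Wt1, a defining transcription factor of podocytes, had at most 2 reads in any library and Lmx1b at most 1. Markers of neurons, in which most of these genes were first studied, summed to 6.15 to 8.07 CPM in Setdb2KO and 13.8 to 15.3 CPM in Setdb2WT libraries over 7 genes of 11, with Snap25 and Stmn2 at no more than 1 read in any library. Of the 4 neuronal markers tested 1 was higher and 1 lower: Elavl3 had 170, 118 and 118 reads in Setdb2KO libraries, against 0, 1 and 1 reads in Setdb2WT libraries, and Tubb3 averaged 2.41 ± 0.43 CPM in Setdb2KO and 13.4 ± 0.71 CPM in Setdb2WT libraries (SD, n = 3 each). Summed markers of mesangium and pericytes were at 4.98 to 5.68 CPM in Setdb2KO and 14.3 to 14.7 CPM in Setdb2WT libraries (3 genes of 5), and those of immune cells at 5.11 to 6.18 CPM in Setdb2KO and 9.53 to 10.2 CPM in Setdb2WT libraries (4 of 6). Most of the immune sum was Csf1r (mean 5.24 CPM in Setdb2KO, 9.74 CPM in Setdb2WT), the only immune marker tested. Itgam went the other way, with 12, 9 and 13 reads in Setdb2KO libraries and 0 in each Setdb2WT library. Ptprc had 0 reads in each Setdb2KO library and 4, 5 and 5 in Setdb2WT libraries, and Lyz2 at most 5 in any library. Summed markers of glia (4.39 to 6.18 CPM in Setdb2KO, 6.06 to 6.21 CPM in Setdb2WT) and endothelium (3.21 to 4.78 CPM in Setdb2KO, 3.77 to 4.41 CPM in Setdb2WT) overlapped between the groups. The part of these cell types in the results was not tested. Levels in bulk RNA cannot tell fewer cells of a type from less RNA per cell.

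Class 3 semaphorins, plexins and EphB receptors were mostly lower in the Setdb2KO libraries, and Epha2, by far the most abundant Eph receptor, was higher. Of the 65 genes, 48 had enough reads to be tested. Of those, 13 were higher and 29 lower in Setdb2KO than in Setdb2WT libraries and 6 did not pass the threshold, so 42 changed. This count has to be read against a table in which 83.8% of the 13509 genes tested changed (41.5% higher, 42.3% lower), and 84.9% of the protein-coding genes (40.2% higher, 44.6% lower), so a share of 87.5% lies near the background. The median log2 fold change of the 48 was -0.62, beside 0.00 over all genes tested. A fold of at least 2 was reached by 8 genes upward and 17 downward, where 16.4% of all genes tested rose and 16.2% fell by that much, and 13.6% and 16.7% of protein-coding genes. Tested against a limit of 1.5-fold with edgeR's glmTreat, 9 were higher and 18 lower, beside calls for 45.4% of all genes and 44.4% of protein-coding genes. The 3 Setdb2KO libraries lay wholly above or below the 3 Setdb2WT libraries in 42 of the 48, against 84.6% of all genes tested and 85.5% of protein-coding genes. Sorted by role, 3 of 16 tested receptors were higher and 13 lower, and 8 of 30 tested ligands were higher and 16 lower; the single netrin-G and Unc50 are counted in neither.

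**Figure D1:**
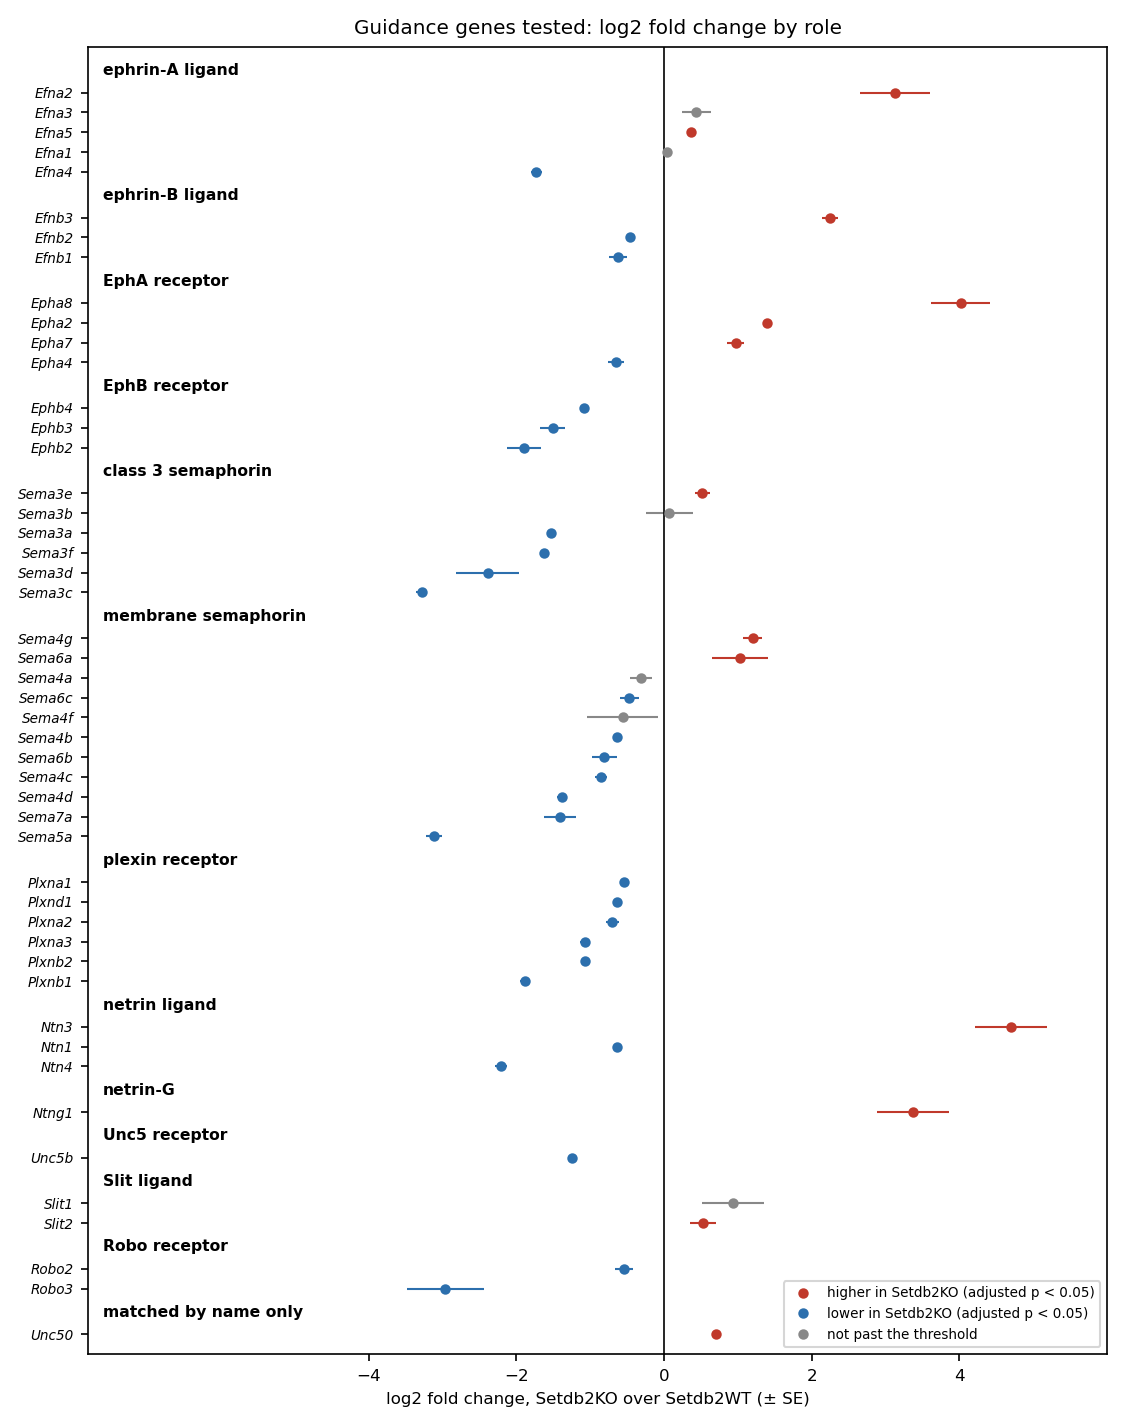
Log2 fold change (x axis, Setdb2KO over Setdb2WT, bars ± SE) of the 48 guidance genes tested, grouped by role down the page; red is higher and blue lower at an adjusted p under 0.05, grey did not pass. All 6 plexins and all 3 EphB receptors tested lie left of 0, and the changes run from -3.28 for Sema3c to 4.70 for Ntn3.

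The largest rises among genes with at least 1 CPM in either group and a RefSeq promoter entry were those of Ntn3, Epha8 and Epha2, and the largest falls those of Sema3c, Sema5a and Ntn4. RefSeq entries on GRCm38.p6 matched 57 of the 65 genes, with 73 annotated starts. The 250 bases before the start of these 6 genes are shown because their changes were the largest, with every CpG in capitals and the gene's own strand read 5′ to 3′. The windows lie at chr17:24209388-24209637 on the minus strand for Ntn3, chr4:136956817-136957066 on the minus strand for Epha8, chr4:141300971-141301220 on the plus strand for Epha2, chr5:17574566-17574815 on the plus strand for Sema3c, chr15:32244563-32244812 on the plus strand for Sema5a and chr10:93640799-93641048 on the plus strand for Ntn4.
Ntn3: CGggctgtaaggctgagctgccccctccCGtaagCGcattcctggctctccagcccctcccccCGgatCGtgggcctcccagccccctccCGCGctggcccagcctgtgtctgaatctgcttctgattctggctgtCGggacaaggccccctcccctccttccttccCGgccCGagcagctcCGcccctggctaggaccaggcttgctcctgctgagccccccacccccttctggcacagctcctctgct
Epha8: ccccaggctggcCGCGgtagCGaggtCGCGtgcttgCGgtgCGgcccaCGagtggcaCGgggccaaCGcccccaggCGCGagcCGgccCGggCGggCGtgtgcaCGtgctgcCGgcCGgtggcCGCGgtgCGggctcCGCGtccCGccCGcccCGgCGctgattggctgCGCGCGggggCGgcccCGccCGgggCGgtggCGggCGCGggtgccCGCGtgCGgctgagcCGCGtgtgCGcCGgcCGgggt
Epha2: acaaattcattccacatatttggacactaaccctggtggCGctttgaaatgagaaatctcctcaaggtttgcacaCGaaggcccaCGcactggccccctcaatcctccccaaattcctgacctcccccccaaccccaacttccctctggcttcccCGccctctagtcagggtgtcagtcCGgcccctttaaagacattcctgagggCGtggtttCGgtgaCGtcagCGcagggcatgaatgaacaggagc
Sema3c: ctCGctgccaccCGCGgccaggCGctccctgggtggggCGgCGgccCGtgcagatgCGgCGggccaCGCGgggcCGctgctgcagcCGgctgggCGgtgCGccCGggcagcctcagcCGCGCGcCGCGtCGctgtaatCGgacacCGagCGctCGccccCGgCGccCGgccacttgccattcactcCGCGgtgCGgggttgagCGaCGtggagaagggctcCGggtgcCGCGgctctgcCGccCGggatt
Sema5a: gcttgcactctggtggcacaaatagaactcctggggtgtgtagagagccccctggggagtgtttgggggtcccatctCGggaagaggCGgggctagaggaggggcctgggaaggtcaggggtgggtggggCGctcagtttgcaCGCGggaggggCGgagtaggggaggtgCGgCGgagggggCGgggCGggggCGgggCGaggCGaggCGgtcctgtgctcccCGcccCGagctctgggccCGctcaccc
Ntn4: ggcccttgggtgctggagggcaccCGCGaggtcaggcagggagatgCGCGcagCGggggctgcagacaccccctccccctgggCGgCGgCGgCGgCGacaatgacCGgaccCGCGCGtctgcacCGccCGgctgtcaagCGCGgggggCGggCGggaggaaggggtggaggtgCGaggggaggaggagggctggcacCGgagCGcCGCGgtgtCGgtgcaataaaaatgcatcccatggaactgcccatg

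CpG-rich windows stood before genes that rose and genes that fell. The Epha8 window holds 46 CpG and the Sema3c window 39, more than 99.7% and 98.4% of the 32851 RefSeq windows of the same length, although the first gene was higher and the second lower in Setdb2KO libraries. Ntn4 has 26 CpG and Sema5a 17, whereas Ntn3 has 11 and Epha2 9, nearer to the median of 6 over all windows. Over the 12 matched starts of the 11 genes that rose, Unc50 among them, the median was 24.5 CpG (range 7 to 46). Over the 35 matched starts of the 26 genes that fell it was 15 (range 0 to 39). A gene with several starts counts once for each, and this difference was not tested. The letters CAGAC, a Smad-binding core searched on both strands, occur once in the Ntn3 window, 2 times in that of Ntn4 and in none of the other 4. They occur in 42.2% of all windows. Across matched starts they occur in 4 of 12 (33.3%) for genes that rose and 18 of 35 (51.4%) for genes that fell, a difference that was not tested. A match is a description of the letters only, and which start these cells use is not known from gene counts.

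Ephrin-A ligands differed more in make-up than in summed level. Together they came to 68.4 ± 0.42 CPM in Setdb2KO and 75.6 ± 1.5 CPM in Setdb2WT libraries (SD, n = 3 each). Efna4, a lipid-anchored ligand, had 7.32, 6.61 and 7.61 CPM in Setdb2KO libraries, against 24.7, 23.3 and 23.4 CPM in Setdb2WT libraries. The groups are far apart, a 3.31-fold fall (log2 fold change -1.73, SE 0.077, adjusted p = 4.2e-11). An antisense gene overlaps 10.5% of its exon bases in the GRCm38 annotation, and its reads cannot be told apart without strand. Efna5, which binds most EphA receptors, had 33.3, 33.6 and 33.2 CPM in Setdb2KO libraries, against 26.5, 25.8 and 25.1 CPM in Setdb2WT libraries. That difference is small but without overlap (log2 fold change 0.37, SE 0.051, adjusted p = 1.1e-05). The per-kilobase ratio of Efna5 to Efna4 was 1.73 to 2.01 in Setdb2KO and 0.425 to 0.441 in Setdb2WT libraries, so their order turned round.

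Efna1, the best known ligand of Epha2, had 25.5, 25.1 and 24.8 CPM in Setdb2KO libraries and 24.2, 23.1 and 26.0 CPM in Setdb2WT libraries. Its libraries overlap, and the log2 fold change of 0.04 (SE 0.060) did not pass (adjusted p = 0.54), although it did under total-count scaling (0.19, adjusted p = 0.0077). Efna2 rested on few reads, 23, 22 and 35 in Setdb2KO and 2, 3 and 3 in Setdb2WT libraries (log2 fold change 3.13, SE 0.47, adjusted p = 2.7e-05). Efna3 had 2.17, 2.25 and 1.85 CPM in Setdb2KO libraries, against 1.37, 1.65 and 1.61 CPM in Setdb2WT libraries. It missed the threshold narrowly (log2 fold change 0.44, SE 0.20, adjusted p = 0.051) and passed it without Setdb2KO replicate 3 (adjusted p = 0.042). For Efna3 an antisense gene overlaps 14.1% of the exon bases.

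Among the ephrin-B ligands, which span the membrane and signal backwards through their tails, Efnb3 rose while Efnb2 and Efnb1 fell. Efnb3 had 13.9, 15.1 and 13.9 CPM in Setdb2KO libraries, against 3.26, 3.15 and 2.59 CPM in Setdb2WT libraries. The groups are far apart, and Efnb3 rose 4.76-fold (log2 fold change 2.25, SE 0.11, adjusted p = 9.1e-11). Efnb2, the partner of Ephb4 in vessels, had 84.7, 90.0 and 84.9 CPM in Setdb2KO libraries, against 121, 118 and 118 CPM in Setdb2WT libraries. It remained the most abundant ligand of the class per kilobase in both groups, at 67.8% to 68.4% of the class in Setdb2KO and 83.1% to 85.7% in Setdb2WT libraries (log2 fold change -0.46, SE 0.037, adjusted p = 2.9e-08). Efnb1, the ephrin placed at the slit diaphragm, had 5.22, 4.91 and 4.69 CPM in Setdb2KO libraries, against 7.07, 8.62 and 7.10 CPM in Setdb2WT libraries. Its groups do not overlap (log2 fold change -0.62, SE 0.12, adjusted p = 1.9e-04).

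Of the 4 EphA receptors tested 3 rose, Epha2 among them, while the 3 EphB receptors tested fell. Epha2, a receptor of epithelial cells, had 872, 906 and 865 CPM in Setdb2KO libraries, against 339, 331 and 331 CPM in Setdb2WT libraries. The rise was 2.64-fold (log2 fold change 1.40, SE 0.030, adjusted p = 1.9e-14), and Epha2 made up 98.7% to 98.8% of EphA level per kilobase in Setdb2KO and 96.9% to 97.1% in Setdb2WT libraries. Summed EphA receptors came to 902 ± 22 CPM in Setdb2KO and 352 ± 4.5 CPM in Setdb2WT libraries (SD, n = 3 each). Epha7 had 11.6, 13.5 and 11.3 CPM in Setdb2KO libraries, against 7.01, 5.39 and 6.12 CPM in Setdb2WT libraries (log2 fold change 0.97, SE 0.11, adjusted p = 1.6e-06).

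Epha8, a receptor studied mainly in the brain, was close to absent from the Setdb2WT libraries. It had 43, 55 and 51 reads in Setdb2KO libraries, against 2, 3 and 3 reads in Setdb2WT libraries. On summed reads scaled to effective library size the ratio was 16.9 (8.35 to 39.9, exact 95% bounds for counting error only), and the adjusted p was 3.2e-07. Epha4, which binds ligands of both classes, went the other way, with 7.29, 7.34 and 8.86 CPM in Setdb2KO libraries against 11.4, 13.8 and 11.7 CPM in Setdb2WT libraries (log2 fold change -0.65, SE 0.11, adjusted p = 5.3e-05).

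All 3 EphB receptors tested fell. Ephb4, the main one, had 42.3, 44.5 and 39.9 CPM in Setdb2KO libraries, against 90.6, 87.0 and 91.1 CPM in Setdb2WT libraries (2.12-fold lower, log2 fold change -1.08, SE 0.046, adjusted p = 2.4e-11). Ephb2, known for axon crossing and synapses, had 1.34, 1.21 and 0.834 CPM in Setdb2KO libraries, against 5.21, 4.17 and 3.22 CPM in Setdb2WT libraries. Ephb3 had 1.37, 1.37 and 1.75 CPM in Setdb2KO libraries, against 4.69, 4.37 and 3.74 CPM in Setdb2WT libraries. These last 2 fell 3.70-fold and 2.85-fold, with log2 fold changes of -1.89 (SE 0.23, adjusted p = 2.5e-06) and -1.51 (SE 0.17, adjusted p = 1.7e-06), and neither gene's groups overlap. With Epha2 higher and Ephb4 lower, Epha2 was 20.2 to 21.5 times the level of Ephb4 per kilobase in Setdb2KO and 3.6 to 3.78 times in Setdb2WT libraries.

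**Figure D2:**
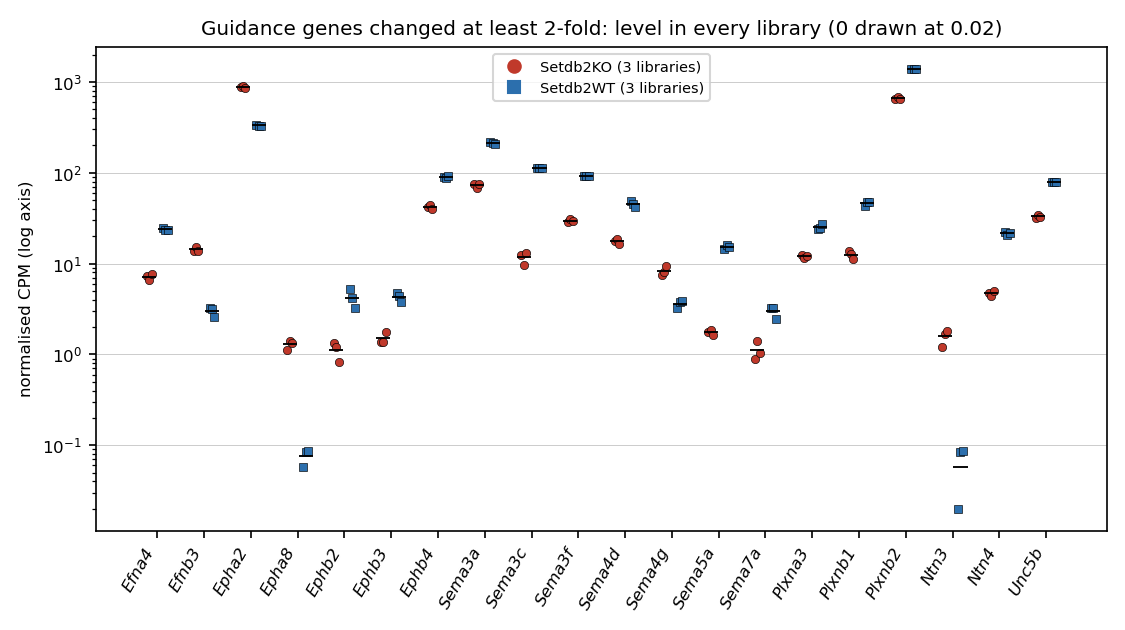
Normalised CPM (y axis, log scale, a value of 0 drawn at 0.02) in every library for the 20 guidance genes with an adjusted p under 0.05, at least a 2-fold change and at least 1 CPM in either group; circles are Setdb2KO, squares Setdb2WT libraries, short lines the group means. In none of the 20 do the groups overlap, which their choice by change between these same groups largely fixes. Over all genes tested the share without overlap is 84.6%. The widest gap relative to level is that of Ntn3, with 0 to 3 reads in each Setdb2WT library.

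The secreted class 3 semaphorins, which repel axons and endothelial cells through neuropilin and plexin, showed the largest loss in summed level among the groups of guidance ligands. They came to 127 ± 5.3 CPM in Setdb2KO and 426 ± 5.8 CPM in Setdb2WT libraries (SD, n = 3 each), a ratio of 0.298. Among the 6 with a test, 1 rose, 4 fell and 1 stayed below the threshold. Sema3c, known from outflow tract septation and tumour invasion, had 12.3, 9.74 and 13.0 CPM in Setdb2KO libraries, against 114, 114 and 113 CPM in Setdb2WT libraries. This 9.75-fold fall was the largest among the guidance genes (log2 fold change -3.28, SE 0.072, adjusted p = 2.8e-14).

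Sema3a, the prototype repellent, had 75.2, 67.8 and 76.1 CPM in Setdb2KO libraries, against 216, 212 and 206 CPM in Setdb2WT libraries (2.89-fold lower, log2 fold change -1.53, SE 0.044, adjusted p = 4e-13). Sema3f, which acts mainly through neuropilin-2, had 28.9, 30.7 and 29.6 CPM in Setdb2KO libraries, against 92.4, 91.0 and 91.4 CPM in Setdb2WT libraries (3.08-fold lower, log2 fold change -1.62, SE 0.042, adjusted p = 1.3e-13). In Setdb2KO libraries Sema3c stood at a mean of 1.63 CPM per kilobase, below Sema3a at 5.27 and Sema3f at 5.72. In Setdb2WT libraries the means of Sema3c, Sema3a and Sema3f were closer together, at 15.9, 15.2 and 17.6 CPM per kilobase. Sema3d, at 0.181, 0.103 and 0.0782 CPM in Setdb2KO and 0.572, 0.794 and 0.575 CPM in Setdb2WT libraries, fell from a low level (log2 fold change -2.39, SE 0.43, adjusted p = 1.5e-04).

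Sema3e, which binds Plxnd1 without a neuropilin, was the class 3 member that rose. It had 11.1, 11 and 11.2 CPM in Setdb2KO libraries, against 7.90, 6.69 and 8.65 CPM in Setdb2WT libraries (log2 fold change 0.52, SE 0.099, adjusted p = 2.2e-04). Sema3b overlapped between the groups, with 1.32, 0.904 and 0.573 CPM in Setdb2KO and 1.00, 0.964 and 0.690 CPM in Setdb2WT libraries (log2 fold change 0.07, SE 0.32, adjusted p = 0.84). Sema3g, a class 3 semaphorin that podocytes make in the kidney, had too few reads for the test, with 8, 25 and 10 in Setdb2KO and 1, 1 and 4 in Setdb2WT libraries. It was called higher in the fits without a filter, without Setdb2KO replicate 1 and without Setdb2WT replicate 1, 2 or 3.

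Membrane-bound semaphorins summed to 101 ± 4.3 CPM in Setdb2KO and 182 ± 5.0 CPM in Setdb2WT libraries (SD, n = 3 each). Among the 11 with a test, 2 rose, 7 fell and the other 2 stayed below the threshold. Sema5a, which carries thrombospondin repeats, had 1.78, 1.86 and 1.64 CPM in Setdb2KO libraries, against 14.6, 16.1 and 15.2 CPM in Setdb2WT libraries. It fell 8.66-fold (log2 fold change -3.11, SE 0.11, adjusted p = 2.8e-12). Sema4d, the ligand of Plxnb1, had 17.6, 18.5 and 16.4 CPM in Setdb2KO libraries, against 48.6, 45.6 and 42.4 CPM in Setdb2WT libraries (log2 fold change -1.38, SE 0.065, adjusted p = 8.1e-11). Sema7a, the lipid-anchored member that can bind beta 1 integrins, had 0.879, 1.42 and 1.04 CPM in Setdb2KO libraries, against 3.23, 3.21 and 2.47 CPM in Setdb2WT libraries (log2 fold change -1.41, SE 0.22, adjusted p = 3.6e-05).

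Sema4g turned the other way, with 7.5, 8.16 and 9.36 CPM in Setdb2KO libraries against 3.23, 3.74 and 3.91 CPM in Setdb2WT libraries (2.30-fold higher, log2 fold change 1.2, SE 0.13, adjusted p = 5.8e-07). Sema4b, the most abundant membrane semaphorin per kilobase, fell by 0.64 on the log2 scale, and Sema4c, a ligand of Plxnb2, by 0.85, with adjusted p of 2e-08 and 1.7e-07. A gene on the opposite strand overlaps 7.27% of the exon bases of Sema4c. Sema6b and Sema6c, of the class that binds A plexins, fell by 0.81 and 0.47 (adjusted p = 4.4e-04 and 0.0041). Sema6a rose on 21, 18 and 22 reads in Setdb2KO libraries, against 7, 8 and 12 reads in Setdb2WT libraries (log2 fold change 1.03, SE 0.38, adjusted p = 0.021). That call was lost without Setdb2KO replicate 1 or 3 or Setdb2WT replicate 1 or 2, at adjusted p of 0.054, 0.060, 0.080 and 0.069. Sema4a (log2 fold change -0.31, adjusted p = 0.076) and Sema4f (-0.56, adjusted p = 0.29) did not pass, but Sema4a did without Setdb2KO replicate 2 or Setdb2WT replicate 1 (adjusted p = 0.027 and 0.046).

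Plexins, the receptors of semaphorins, fell in all 6 tested members, under every scaling tried, though glmTreat called 3 of the 6. Their sum was 890.5 ± 23 CPM in Setdb2KO and 1756 ± 8.8 CPM in Setdb2WT libraries (SD, n = 3 each). Plxnb2, a receptor for class 4 semaphorins that is widespread in epithelia, had 652, 679.5 and 647 CPM in Setdb2KO libraries, against 1378, 1378 and 1388 CPM in Setdb2WT libraries. It fell 2.09-fold (log2 fold change -1.07, SE 0.029, adjusted p = 2e-13) and held 76.9% to 77.0% of plexin level per kilobase in Setdb2KO and 81.0% to 81.4% in Setdb2WT libraries. Plxnb1, the receptor of Sema4d, had 13.6, 12.6 and 11.3 CPM in Setdb2KO libraries, against 43.2, 47.7 and 47.5 CPM in Setdb2WT libraries (3.69-fold lower, log2 fold change -1.88, SE 0.071, adjusted p = 7.2e-12).

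The A plexins, which carry the class 3 signal across the membrane, fell too. Plxna1, the most abundant of them, had 181, 190.4 and 181 CPM in Setdb2KO libraries, against 265, 271 and 268 CPM in Setdb2WT libraries (log2 fold change -0.54, SE 0.032, adjusted p = 9.7e-10). An antisense gene overlaps 10.7% of its exon bases. Plxna3 had 12.5, 11.5 and 12.2 CPM in Setdb2KO libraries, against 24.2, 24.4 and 27.5 CPM in Setdb2WT libraries (log2 fold change -1.07, SE 0.072, adjusted p = 4.4e-09). Plxna2 fell by 0.70 and Plxnd1, the receptor of Sema3e, by 0.63 on the log2 scale (adjusted p = 2.8e-06 and 7.4e-07). Per kilobase, Epha2 led all guidance genes in Setdb2KO libraries with 188 ± 4.6 CPM, ahead of Plxnb2 with 85.4 ± 2.3 CPM, whereas in Setdb2WT libraries Plxnb2 led with 179 ± 0.76 CPM and Epha2 followed with 71.4 ± 0.97 CPM (SD, n = 3 each). Within a library the Epha2 to Plxnb2 ratio was 2.20 to 2.21 in Setdb2KO and 0.393 to 0.406 in Setdb2WT libraries.

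**Figure D3:**
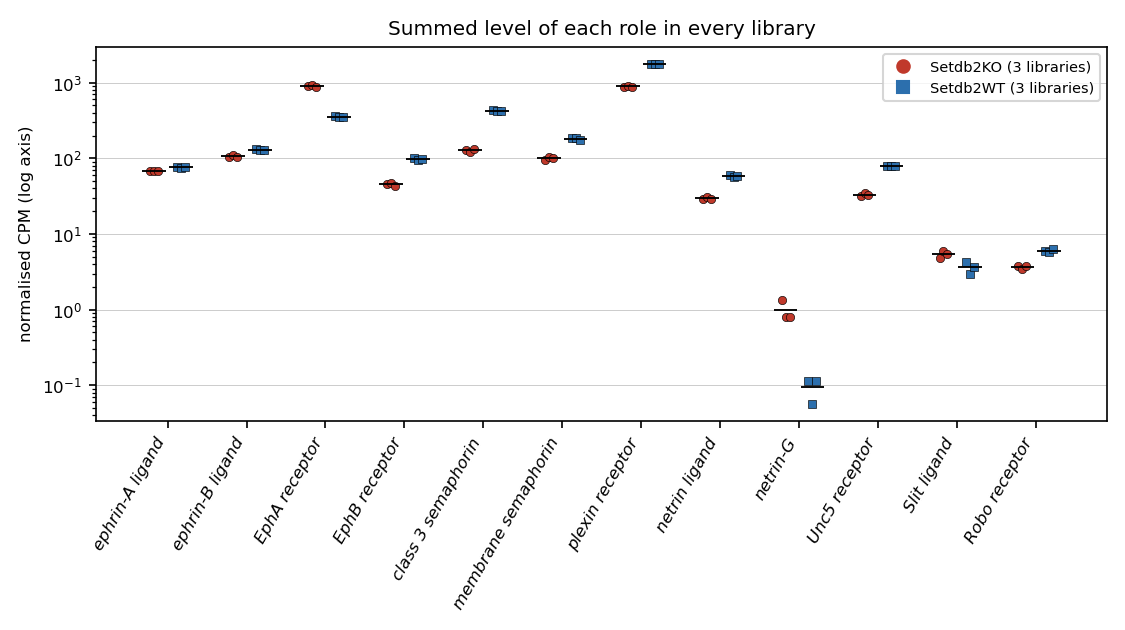
Summed normalised CPM (y axis, log scale) of the guidance genes of each role in every library; circles are Setdb2KO, squares Setdb2WT libraries, short lines the group means. EphA receptors lie higher in Setdb2KO (902 against 352 CPM) and class 3 semaphorins lower (127 against 426 CPM), and the sums are not per length, so roles are to be compared between groups and not with each other.

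Netrin ligands were lower in summed level, at 29.6 ± 1.3 CPM in Setdb2KO against 58.0 ± 1.7 CPM in Setdb2WT libraries (SD, n = 3 each), a ratio of 0.51. Ntn4, a netrin of basement membranes that binds laminin, had 4.71, 4.42 and 4.93 CPM in Setdb2KO libraries, against 22.5, 20.8 and 21.8 CPM in Setdb2WT libraries (4.64-fold lower, log2 fold change -2.21, SE 0.082, adjusted p = 5.8e-12). Ntn1, the classical attractant, had 23.0, 25.0 and 22.0 CPM in Setdb2KO libraries, against 36.7, 35.0 and 36.7 CPM in Setdb2WT libraries (log2 fold change -0.63, SE 0.059, adjusted p = 1.7e-07). Per kilobase the Setdb2KO libraries had a mean of 1.25 CPM of Ntn4 and 3.71 CPM of Ntn1, whereas in Setdb2WT libraries the means were nearly the same, 5.81 CPM for Ntn4 and 5.75 CPM for Ntn1.

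Ntn3, a netrin of sensory ganglia and muscle in mice, had 47, 65 and 70 reads in Setdb2KO libraries, against 0, 3 and 3 reads in Setdb2WT libraries. The ratio of summed reads, scaled in the same way, was 27.5 (exact 95% bounds of 12.4 and 76.0), and the adjusted p was 5.7e-07. Exons of a neighbouring gene on the same strand cover 1.74% of its exon bases and an antisense gene 2.72%. Ntng1, a lipid-anchored netrin relative of synapses, had 52, 27 and 27 reads in Setdb2KO libraries, against 3, 2 and 4 reads in Setdb2WT libraries (log2 fold change 3.37, SE 0.49, adjusted p = 1.9e-05). Unc5b, a netrin receptor also found on vessels, had 31.9, 34.3 and 32.8 CPM in Setdb2KO libraries, against 78.6, 79.1 and 78.6 CPM in Setdb2WT libraries (2.39-fold lower, log2 fold change -1.25, SE 0.043, adjusted p = 2.5e-12). It made up 99.9% or more of Unc5 receptor level per kilobase in every library.

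The 4 Slit and Robo genes tested had low levels, and their changes ran from -2.96 for Robo3 to 0.93 for Slit1 on the log2 scale. Slit2, the Slit that limits ureteric budding, had 3.90, 5.58 and 4.85 CPM in Setdb2KO libraries, against 4.03, 2.55 and 3.33 CPM in Setdb2WT libraries. The groups overlap, and although the gene passed (log2 fold change 0.53, SE 0.18, adjusted p = 0.014), it did not without Setdb2WT replicate 2 (0.36, adjusted p = 0.088). Slit1 had 0.905, 0.336 and 0.626 CPM in Setdb2KO and 0.257, 0.397 and 0.316 CPM in Setdb2WT libraries. It did not pass (log2 fold change 0.93, SE 0.42, adjusted p = 0.051), but did without Setdb2KO replicate 2 (1.23, adjusted p = 0.010). Robo2, the Slit receptor of podocytes, had 3.57, 3.36 and 3.73 CPM in Setdb2KO libraries, against 5.41, 5.05 and 5.00 CPM in Setdb2WT libraries (log2 fold change -0.54, SE 0.12, adjusted p = 0.001). Robo3, which silences Slit repulsion in commissural axons, had 6, 2 and 3 reads in Setdb2KO libraries, against 17, 23 and 40 reads in Setdb2WT libraries (log2 fold change -2.96, SE 0.52, adjusted p = 1.1e-04).

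Of the 65 genes, 17 had too few reads for the test, 15 of them with at most 6 reads in any library. They were Epha1, Epha3, Epha10, Ephb1, Ephb6, Ntn5, Ntng2, Plxna4, Plxnb3, Plxnc1, Robo1, Robo4, Sema3g, Sema6d, Unc5a, Unc5c and Unc5cl. Ephb6, a receptor without kinase activity, had 7, 14 and 7 reads in Setdb2KO and 2, 3 and 5 reads in Setdb2WT libraries, unlike the EphB receptors tested. Sema3g reached 25 reads. The name rule also takes Unc50, a Golgi protein, and Unc5cl, which carries a death domain; neither is a guidance receptor. Unc50 had 52.5, 54.1 and 53.0 CPM in Setdb2KO libraries, against 30.3, 33.2 and 33.8 CPM in Setdb2WT libraries (log2 fold change 0.71, SE 0.051, adjusted p = 8.8e-09), and without the 2 genes the counts are 12 higher and 29 lower of 47 tested.

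Other genes of these pathways were described from a list of 107 co-receptors, cytoplasmic effectors and processing enzymes, of which 95 were tested. Of these 31 were higher and 53 lower in Setdb2KO than in Setdb2WT libraries, which is 88.4% beside the 83.8% of all genes tested, with a median log2 fold change of -0.34. By group, 5 of 21 co-receptors and partners were higher and 11 lower, 21 of 59 effectors were higher and 33 lower, and 5 of 15 genes of shedding and turnover were higher and 9 lower. Nrp1, the co-receptor of Sema3a, had 11.6, 12.8 and 12.5 CPM in Setdb2KO libraries, against 86.6, 89.4 and 88.5 CPM in Setdb2WT libraries. It fell 7.16-fold (log2 fold change -2.84, SE 0.051, adjusted p = 3.9e-15). Nrp2, the co-receptor of Sema3f, named after its values were seen, had 97.6, 99.4 and 95 CPM in Setdb2KO libraries, against 161, 168 and 159.6 CPM in Setdb2WT libraries (log2 fold change -0.74, SE 0.035, adjusted p = 7.7e-11). Per kilobase Nrp2 was 6.29 to 6.95 times Nrp1 in Setdb2KO and 1.49 to 1.55 times in Setdb2WT libraries.

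Neo1, neogenin, the netrin receptor that also binds repulsive guidance molecules, rose. It had 242, 252 and 253 CPM in Setdb2KO libraries, against 79.4, 76.6 and 75.3 CPM in Setdb2WT libraries (3.23-fold higher, log2 fold change 1.69, SE 0.035, adjusted p = 1.8e-14). The Neo1 to Unc5b ratio per kilobase was 5.28 to 5.52 in Setdb2KO and 0.688 to 0.725 in Setdb2WT libraries. Maged1, which binds an Unc5 receptor, averaged 105 ± 2.0 CPM in Setdb2KO and 411 ± 4.0 CPM in Setdb2WT libraries (SD, n = 3 each). Met, the hepatocyte growth factor receptor that associates with B plexins, averaged 91.8 ± 2.9 CPM in Setdb2KO and 243 ± 1.9 CPM in Setdb2WT libraries.

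Effectors of the cytoskeleton among the genes with the smallest adjusted p were lower too, while of all 59 effectors tested 21 were higher and 33 lower. Mical2, an actin-oxidising enzyme of the family that acts below plexins, averaged 11.6 ± 0.26 CPM in Setdb2KO and 56.6 ± 0.44 CPM in Setdb2WT libraries (SD, n = 3 each). Vav2, a guanine nucleotide exchange factor that Eph receptors recruit, averaged 13.7 ± 0.29 CPM in Setdb2KO and 57.3 ± 2.6 CPM in Setdb2WT libraries. Vasp, which extends actin filaments, averaged 60.4 ± 1.5 CPM in Setdb2KO and 141 ± 1.8 CPM in Setdb2WT libraries. Itga3, the laminin-binding integrin chain of podocytes, which was listed with the receptor partners, averaged 367 ± 11 CPM in Setdb2KO and 957 ± 18 CPM in Setdb2WT libraries. Adjusted p over these 4 and Maged1 and Met ran from 1.2e-15 to 4.3e-13.

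**Figure D4:**
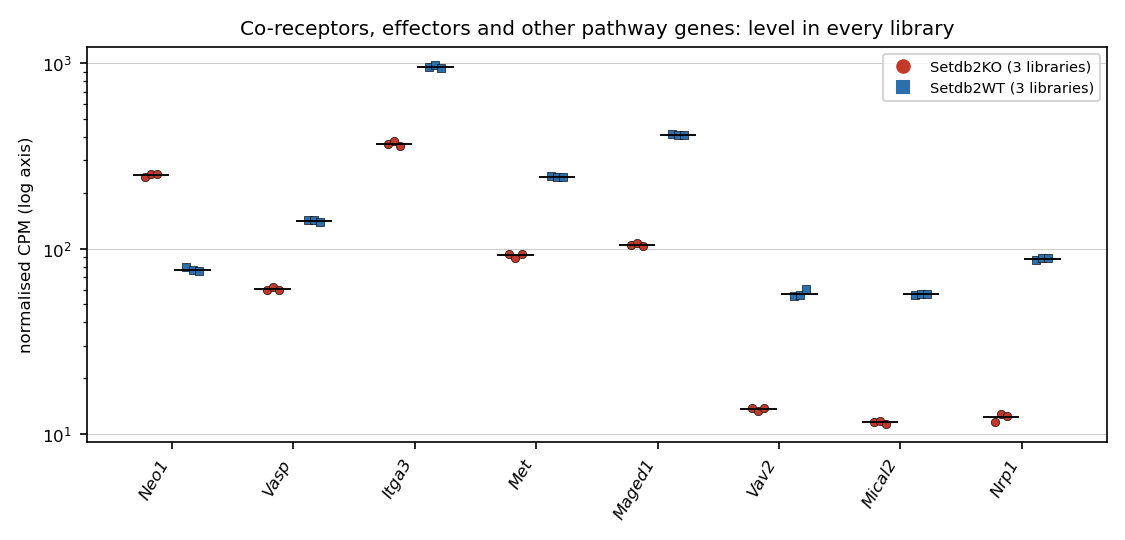
Normalised CPM (y axis, log scale) in every library for the 8 other pathway genes with the smallest adjusted p among those changed at least 2-fold and reaching 5 CPM; circles are Setdb2KO, squares Setdb2WT libraries, short lines the group means. Neo1 lies higher in the Setdb2KO libraries (249 against 77.1 CPM) and the other 7 lie lower, Nrp1 by the most.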

How the data were processed

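RNA-seq counts of 6 MPC5 libraries, 3 labelled Setdb2KO and 3 labelled Setdb2WT, were used. In the deposited table each library has a column of raw counts. The submitters' processing notes name fastp, HISAT, HTSeq and the build GRCm39. Their versions, the annotation and the strand setting were not found in the labels or notes, so reads of overlapping and antisense genes cannot be told apart. Columns were matched to samples by genotype and number.

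All 21719 genes entered edgeR 4.0.16 (R 4.3.3): filterByExpr (minimum count 10), TMM factors, glmQLFit and glmQLFTest on genotype alone, with p adjusted by Benjamini-Hochberg over the 13509 genes tested and a threshold of 0.05. SE is the log2 fold change divided by the square root of F. CPM per kilobase uses exon length in GENCODE M21 (GRCm38), an approximation because the build differs from the authors' own. Ratios of summed reads are scaled to effective library size (total count times TMM factor), with Clopper-Pearson intervals at 95%. At these depths a gene near the minimum count has a wide counting error. The scripts were tested on simulated data. Members, lists and naming rules were chosen with earlier results of these data known. Values in every library were given for all members with an adjusted p under 0.05, at least a 2-fold change and 1 CPM in either group. They were also given for some members outside that rule. Of other pathway genes changed at least 2-fold and reaching 5 CPM, the 8 with the smallest adjusted p were named. Nrp2, which did not meet that rule, was added after its values were seen. Within each group all pairs of libraries differed beyond counting noise (chi-square per degree of freedom 4.22 to 14.8 in Setdb2KO, 2.51 to 2.65 in Setdb2WT). Alternatives used DESeq2 1.42.0 and limma 3.58.1.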

Additional observations from a re-analysis of the deposited data

How the results depend on the processing

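No guidance gene that changed in the edgeR fit turned its sign, where tested, under DESeq2's size factors, upper-quartile or total-count scaling, either other filter, the DESeq2 Wald test, limma-voom, glmTreat, the replicate block or the loss of any 1 library. Total-count scaling moved the median log2 fold change of all genes to 0.16 and that of the 48 guidance genes to -0.47, and gave 16 higher and 29 lower. Against a limit of 1.5-fold, glmTreat called 6137 genes in all (45.4%); among guidance genes it called 9 higher and 18 lower, and among the other pathway genes 12 higher and 36 lower, since it asks for a larger change. With 1 library left out, guidance genes numbered 12 to 14 higher and 29 to 30 lower, other pathway genes 27 to 30 higher and 51 to 55 lower, and all genes called 11067 to 11496. Signs turned in 2 genes that did not pass: Efna1 ran from -0.014 to 0.07 and Sema3b from -0.26 to 0.33 with 1 library left out. The DESeq2 Wald test did not call Sema6a (adjusted p = 0.067). Efna3 and Slit1 passed with DESeq2's size factors (adjusted p = 0.041 and 0.048), with upper-quartile factors (0.043 and 0.048) and under total-count scaling (0.012 and 0.026), and Efna3 also with a filter of CPM at least 1 in 3 libraries (0.030). That filter left 40 guidance genes tested (11 higher, 27 lower), so Efna2, Ntng1, Robo3, Sema3d and Sema6a had no test there. Sema3g was called higher without a filter and without Setdb2KO replicate 1 or Setdb2WT replicate 1, 2 or 3.

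The labels give both groups replicate numbers 1 to 3, but same-numbered libraries did not deviate together (correlation -0.03 to 0.001). No library correlated best with the same-numbered library of the other group. With the number as a replicate block, 13 guidance genes were higher and 29 lower, and 11190 of all genes were called.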
